A study of Mus musculus with 4 samples.

Results

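Cholesterol and sterol synthesis genes were followed across the cell types of the caudal mouse embryo, in wild-type (WT) and *Grhl3*-null embryos. The set holds 28 genes of the 31055 in the deposited count tables, picked by symbol. It covers 8 genes of the mevalonate arm (*Acat2*, *Hmgcs1*, *Mvk*, *Pmvk*, *Mvd*, *Idi1*, *Fdps*, *Ggps1*), 3 that lead from farnesyl groups to lanosterol (*Fdft1*, *Sqle*, *Lss*) and 9 that turn lanosterol into cholesterol (*Cyp51*, *Tm7sf2*, *Lbr*, *Msmo1*, *Nsdhl*, *Hsd17b7*, *Ebp*, *Sc5d*, *Dhcr7*). The other members were 4 regulators (*Srebf1*, *Srebf2*, *Scap*, *Insig1*) and 4 genes of lipid synthesis and transport (*Fasn*, *Scd2*, *Fads1*, *Stard4*). Single-cell RNA sequencing (scRNA-seq) had been performed on the caudal part of embryos at E8.5, taken from litters of *Grhl3*+/- intercrosses, in which both genotypes arise and the null embryos lack *Grhl3* in every tissue. Cells of 5 WT embryos formed 1 pool and cells of 3 *Grhl3*-null embryos formed another, and 2 droplet reactions, here called libraries, were run on each pool. The p-values therefore compare 2 pools of cells and hold no spread between embryos.

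Cholesterol is built from acetyl-CoA through mevalonate, isoprenoid units, squalene and lanosterol, and embryonic neural tissue is known to depend on this pathway for membranes and for Hedgehog signalling. SREBP-2, encoded by *Srebf2*, activates most genes of the pathway when cellular sterols are low, and SREBP-1, encoded by *Srebf1*, acts more on fatty acid genes. The escort protein SCAP carries both from the endoplasmic reticulum, and INSIG1 holds them back when sterols are high. *Insig1* is itself a target of these factors.

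The filtered libraries held 20198 of 24239 deposited cells, with a median of between 33391 and 38070 unique molecular identifiers (UMIs, one per captured transcript) per cell, and 5 to 7 cell barcodes were shared between any pair of libraries. Clustering gave 16 clusters, of which 13 classes could be named from marker genes. The neuroepithelium-like class held 2137 cells (489 and 453 in WT, 576 and 619 in *Grhl3*-null), and all 15 neuroepithelium markers were higher in it than in the other cells of every library. *Grhl3* in this class stood at 4.24 and 4.00 CPM (UMIs of a gene scaled to a fixed total of UMIs in the class and library) in the WT libraries and at 0.129 and 0.130 CPM in the *Grhl3*-null libraries, which matches the labels. The composition of the class differed between the pools. Cells from female embryos, called by *Xist* and 4 Y-linked genes, made up 87.9% and 83.4% of it in WT and 14.1% and 11.3% in *Grhl3*-null. A cluster led by *Hoxc10* and *Hoxa10*, seen at a finer resolution, made up 43.4% and 45.9% of it in WT (212 and 208 cells) and 1 and 2 cells in *Grhl3*-null. Taken alone, that cluster got no name, and its leading genes held more markers of neuromesodermal progenitors than of any other cell type. The gene *T* stood at 46.3 and 51.7 CPM in WT and 8.67 and 13.7 CPM in *Grhl3*-null cells of the class. *Pax6* stood at 54.3 and 61.6 CPM in WT and 126 and 127 CPM in *Grhl3*-null. The 15 neuroepithelium markers, from which the class was named, summed to 4286 and 4288 CPM in WT and 5749 and 5902 CPM in *Grhl3*-null. The 15 neuromesodermal progenitor markers summed to 2077 and 2060 CPM in WT and 1742 and 1728 CPM in *Grhl3*-null. The 15 caudal mesoderm markers, which include *Hoxc10* and *Hoxa10*, summed to 497 and 496 CPM against 218 and 210 CPM, with none of them at 0. They summed to 663 and 690 CPM in the other WT cells, and 0 of them were higher in the class in every library. The changes in the neuroepithelium-like class are therefore also given without that cluster and within each sex, and those in other classes within each sex where that moves them. Sex, embryo of origin and genotype cannot be told apart in these pools.

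In the neuroepithelium-like class, with the sexes not separated, sterol synthesis genes were lower in *Grhl3*-null than in WT cells along nearly the whole pathway. Of the 28 members, 25 fell and 0 rose (edgeR quasi-likelihood test, adjusted p under 0.05), where 13.6% of the 12915 genes tested were called lower. The median log2 fold change of *Grhl3*-null over WT was -0.65 over the members and 0.01 over all genes tested. The class was mostly female in WT and mostly male in *Grhl3*-null. In male cells alone 0 members fell and 3 rose, where 5.53% of 11671 genes were called higher, with a median of -0.04. In female cells alone 23 fell and 0 rose, where 15.2% of 11668 genes were called lower, with a median of -0.88. The values per gene that follow do not separate the sexes. Values summed over the cells of a class cannot tell fewer high-expressing cells from less RNA per cell. With clusters made at a finer resolution, the class kept mainly its *Nkx6-1*-led cells and 12 members fell, where 2.22% of 12249 genes were called lower. In the mevalonate arm, 7 of 8 members fell. *Hmgcs1*, which makes HMG-CoA, had 203 and 205 CPM in the WT libraries and 134 and 129 CPM in the *Grhl3*-null libraries. *Idi1*, the isomerase of the isoprenoid units, had 255 and 250 CPM against 148 and 143 CPM. *Fdps*, which joins these units to farnesyl diphosphate, had 256 and 269 CPM against 117 and 120 CPM. The libraries of a genotype lay close together and the genotypes did not overlap for these genes. The log2 fold changes were -0.66 ± 0.04 (SE) for *Hmgcs1* (adjusted p = 2.89e-10), -0.83 ± 0.04 for *Idi1* (adjusted p = 1.24e-11) and -1.18 ± 0.04 for *Fdps* (adjusted p = 9.58e-14). *Acat2*, the thiolase at the start of the arm, had 171 and 170 CPM in WT and 92.2 and 96.4 CPM in *Grhl3*-null, and *Mvk*, *Pmvk* and *Mvd*, which phosphorylate and decarboxylate mevalonate, fell by 0.66, 0.69 and 0.89 on the log2 scale. *Ggps1*, which leads to geranylgeranyl groups rather than to sterols, was the exception, with 32.3 and 32.5 CPM in WT and 33.4 and 37.6 CPM in *Grhl3*-null (log2 fold change 0.10 ± 0.06, adjusted p = 0.231).

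All 3 members between farnesyl groups and lanosterol fell in the same comparison. *Fdft1*, the squalene synthase, had 88.3 and 84.1 CPM in WT and 46.6 and 47.1 CPM in *Grhl3*-null. *Sqle*, the squalene epoxidase and a rate-limiting step of the pathway, had 99.8 and 108 CPM against 70.9 and 72.0 CPM. *Lss*, the lanosterol synthase, had 24.8 and 27.3 CPM against 14.3 and 14.8 CPM. The 3 genes thus kept the genotypes apart in every library, with log2 fold changes of -0.91 ± 0.04, -0.57 ± 0.05 and -0.87 ± 0.07.

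Between lanosterol and cholesterol, 8 of 9 members fell. *Cyp51*, the lanosterol demethylase, had 113 and 115 CPM in WT and 65.9 and 65.2 CPM in *Grhl3*-null (log2 fold change -0.83 ± 0.04, adjusted p = 3.77e-11). *Msmo1*, a methyl oxidase of the next steps, had 146 and 151 CPM against 85.9 and 90.2 CPM. *Nsdhl*, the X-linked enzyme that works beside it, had 57.4 and 59.9 CPM against 33.2 and 30.6 CPM. *Tm7sf2* and *Lbr* encode reductases for the same sterol step, and LBR is also a protein of the nuclear lamina. They parted here: *Tm7sf2* fell by 0.59 on the log2 scale (adjusted p = 0.000155), and *Lbr* had 103 and 108 CPM in WT and 103 and 103 CPM in *Grhl3*-null (log2 fold change -0.07 ± 0.04, adjusted p = 0.262). *Hsd17b7* and *Ebp*, a reductase and an isomerase of the pathway, fell by 0.44 and 0.40, and *Sc5d* and *Dhcr7*, which carry out late desaturation and reduction steps, fell by 0.62 and 0.64.

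Among the regulators, 3 of 4 fell. *Insig1* had 50.6 and 49.9 CPM in WT and 29.9 and 30.6 CPM in *Grhl3*-null (log2 fold change -0.76 ± 0.05, adjusted p = 1.12e-09). *Srebf2* had 59.9 and 59.8 CPM against 47.0 and 48.9 CPM (-0.35 ± 0.04). *Srebf1* had 17.3 and 17.0 CPM against 14.4 and 13.2 CPM (-0.34 ± 0.08, adjusted p = 0.00522). The *Srebf1* call was lost with DESeq2 (adjusted p = 0.122) and with no filter on low counts (adjusted p = 0.0507). *Scap* had 24.1 and 22.1 CPM in WT and 24.6 and 26.4 CPM in *Grhl3*-null and was not called (log2 fold change 0.11 ± 0.07, adjusted p = 0.256). All 4 genes of lipid synthesis and transport fell. *Scd2*, a fatty acid desaturase, had 407 and 421 CPM against 270 and 267 CPM, and *Fasn*, the fatty acid synthase, had 178 and 175 CPM against 138 and 140 CPM. *Fads1*, another desaturase, fell by 0.26 on the log2 scale, and *Stard4*, a carrier of sterol between membranes, fell by 0.57.

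**Figure D1:**
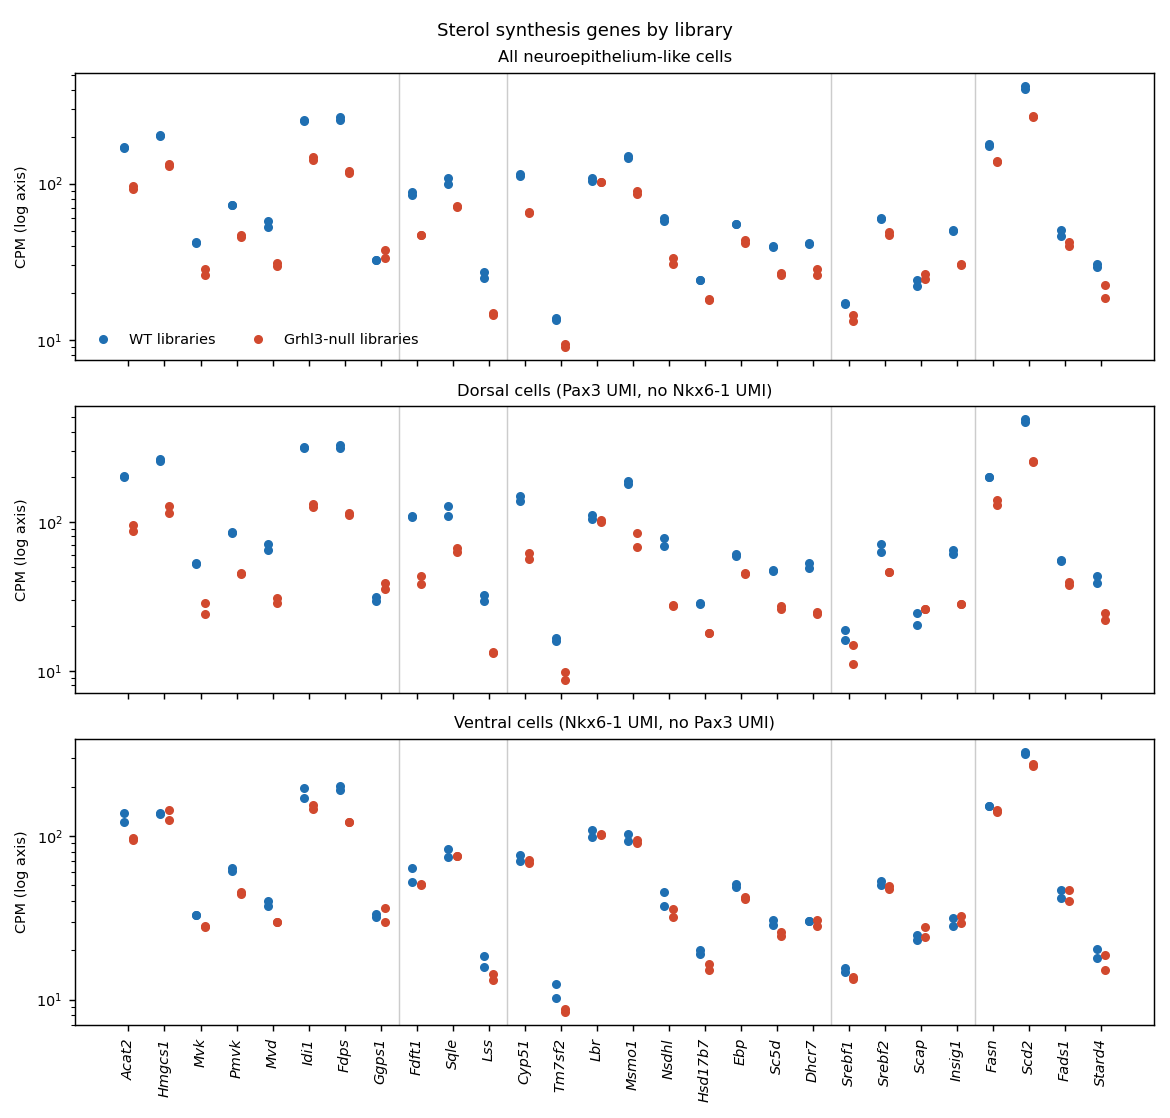
Levels of the 28 members (CPM, log axis) in each library, for all neuroepithelium-like cells, for its dorsal cells and for its ventral cells. Each point is 1 library of WT or *Grhl3*-null. For *Fdps* the WT libraries lay at 256 and 269 CPM and the *Grhl3*-null libraries at 117 and 120 CPM over all cells of the class, and the genotypes lay closer together in ventral than in dorsal cells.

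Without the *Hoxc10*-led cluster, which is nearly absent from *Grhl3*-null, 23 members were called lower and 0 higher, where 3.84% of 12543 genes were called lower. The median over the members was then -0.38. *Hmgcs1* had 166 and 172 CPM in the remaining WT cells and 133 and 130 CPM in *Grhl3*-null cells, and *Fdps* had 225 and 224 CPM against 117 and 120 CPM. Besides *Ggps1*, *Lbr* and *Scap*, the members *Srebf1* and *Stard4* were not called. In cells of the class with no UMI of *T*, 24 members were called lower, where 5.87% of 12044 genes were, and the median was -0.58.

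Sequence upstream of 4 members is shown. *Hmgcs1*, *Srebf2* and *Msmo1* were chosen as the 3 members whose windows match the sterol regulatory element, after the matches were seen, and *Ggps1* as a member with no match that was not called lower. Most members that fell lack the match too, so the stretches do not separate members that fell from those that did not. Each stretch runs from base -200 to base -81 before the gene start given by RefSeq (GRCm38.p6), is written 5′ to 3′ on the strand of the gene, and carries in capitals the letters of the sterol regulatory element bound by SREBPs (searched as TCACNCCA) and of the NF-Y box (CCAAT), on either strand. The stretches lie at chr13:119690151-119690270 (plus strand, *Hmgcs1*), chr15:82147069-82147188 (plus strand, *Srebf2*), chr8:64733659-64733778 (minus strand, *Msmo1*) and chr13:14063569-14063688 (minus strand, *Ggps1*).
Hmgcs1: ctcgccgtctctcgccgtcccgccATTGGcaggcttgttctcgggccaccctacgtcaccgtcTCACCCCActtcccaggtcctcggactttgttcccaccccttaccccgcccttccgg
Srebf2: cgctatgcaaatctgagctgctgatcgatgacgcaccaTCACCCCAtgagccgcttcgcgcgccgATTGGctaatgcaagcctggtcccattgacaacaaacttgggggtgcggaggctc
Msmo1: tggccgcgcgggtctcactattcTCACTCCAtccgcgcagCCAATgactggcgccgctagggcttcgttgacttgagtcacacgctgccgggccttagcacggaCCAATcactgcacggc
Ggps1: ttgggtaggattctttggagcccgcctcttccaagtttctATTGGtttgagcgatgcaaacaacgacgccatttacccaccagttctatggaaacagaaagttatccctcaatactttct

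In these stretches, *Hmgcs1* and *Srebf2* hold 1 match to the sterol regulatory element and 1 NF-Y box each, *Msmo1* holds 1 and 2, and *Ggps1* holds 0 and 1. Promoter windows of 250 bases before to 50 bases after a start were at hand for 22 of the 28 members. The members had 28 such windows, as some have several starts. The sterol regulatory element letters were found in 3 of the 28 windows (10.7%) and in 4.36% of all 32851 windows. The NF-Y letters were found in 21 of the 28 windows (75.0%) and in 37.4% of all windows, and those of Sp1 (GGGCGG) in 22 of the 28 windows (78.6%) and in 35.7% of all windows. Many members that fell, such as *Fasn*, *Insig1* and *Cyp51*, had no match to these element letters in their windows, and the letters searched do not cover other forms of the element.

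The result differed between cells with dorsal and ventral markers. Dorsal cells (758 cells with a UMI of *Pax3* and none of *Nkx6-1*) and ventral cells (874 cells with the reverse) were defined by transcription factors outside the set. In WT, *T* stood at 58.9 and 61.3 CPM in dorsal and 18.9 and 23.6 CPM in ventral cells. *Hes5* stood at 41.5 and 34.0 CPM in dorsal and 207 and 202 CPM in ventral WT cells. Dorsal *Grhl3*-null cells had *T* at 8.64 and 14.6 CPM. *Pax6* stood at 95.7 and 99.3 CPM in them and 45.6 and 32.3 CPM in dorsal WT cells. The part of the *Hes5* and *Pax6* differences in the result was not tested. In dorsal cells 25 members fell and 1 rose in *Grhl3*-null, where 8.89% of 11424 genes were called lower and 7.62% higher, and the median over the members was -0.93. In ventral cells 8 members fell and 0 rose, where 3.81% of 11408 genes were called lower, and the median was -0.21. The 8 were *Pmvk*, *Mvd*, *Idi1*, *Fdps*, *Nsdhl*, *Ebp*, *Scd2* and *Acat2*. *Ggps1* was the member that rose in dorsal cells, from 29.5 and 31.3 CPM in WT to 35.5 and 38.8 CPM in *Grhl3*-null (log2 fold change 0.27 ± 0.09, adjusted p = 0.0472).

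In WT, the pathway was higher dorsally. 24 of 28 members were called higher in dorsal than in ventral cells, with the library as a block, where 4.68% of 11846 genes were, and the median difference was 0.64 on the log2 scale against 0.00 over all genes. *Hmgcs1* had 257 and 262 CPM in dorsal and 138 and 135 CPM in ventral WT cells (log2 difference 0.91 ± 0.06, adjusted p = 1.62e-16). *Cyp51* had 138 and 148 CPM dorsally and 76.2 and 70.3 CPM ventrally (0.94 ± 0.07, adjusted p = 3.09e-15). *Insig1* had 60.6 and 64.2 CPM dorsally and 31.7 and 28.3 CPM ventrally (1.04 ± 0.09, adjusted p = 3.12e-12). *Ggps1*, *Lbr*, *Srebf1* and *Scap* were not called. By step of the pathway, 7 of 8 mevalonate genes, 3 of 3 genes towards lanosterol, 8 of 9 genes from lanosterol to cholesterol, 2 of 4 regulators and 4 of 4 lipid genes were higher dorsally.

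In *Grhl3*-null, the order was mixed. *Stard4* was the 1 member called higher in dorsal cells, where 6.65% of genes were, and 9 members were called lower there (*Hmgcs1*, *Idi1*, *Fdft1*, *Sqle*, *Cyp51*, *Msmo1*, *Nsdhl*, *Dhcr7* and *Scd2*), where 8.00% were. *Hmgcs1* had 114 and 128 CPM in dorsal and 144 and 124 CPM in ventral *Grhl3*-null cells (log2 difference -0.17 ± 0.06, adjusted p = 0.0347). *Cyp51* had 56.2 and 61.9 CPM dorsally and 71.6 and 67.9 CPM ventrally (-0.26 ± 0.07, adjusted p = 0.00494). *Insig1* had 27.9 and 27.9 CPM dorsally and 29.5 and 32.6 CPM ventrally (-0.18 ± 0.09, adjusted p = 0.216). The libraries of *Grhl3*-null overlapped between dorsal and ventral cells for *Hmgcs1* and did not for *Cyp51* and *Insig1*.

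The dorsoventral difference itself was tested between the genotypes. It was larger in WT for 21 of 28 members and smaller for 0, where 1.30% of 11846 genes were called larger, and the median of the difference was 0.69 over the members and 0.00 over all genes. It was 1.08 ± 0.08 for *Hmgcs1* (adjusted p = 5.52e-13), 1.20 ± 0.10 for *Cyp51* (adjusted p = 1.71e-12) and 1.21 ± 0.13 for *Insig1* (adjusted p = 6.47e-09) on the log2 scale. The 7 members not called were *Ggps1*, *Tm7sf2*, *Lbr*, *Hsd17b7*, *Ebp*, *Srebf1* and *Scap*. With both genotypes in 1 fit, 4 members were called higher dorsally (*Mvd*, *Hsd17b7*, *Sc5d* and *Stard4*), where 6.40% of 11368 genes were.

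**Figure D2:**
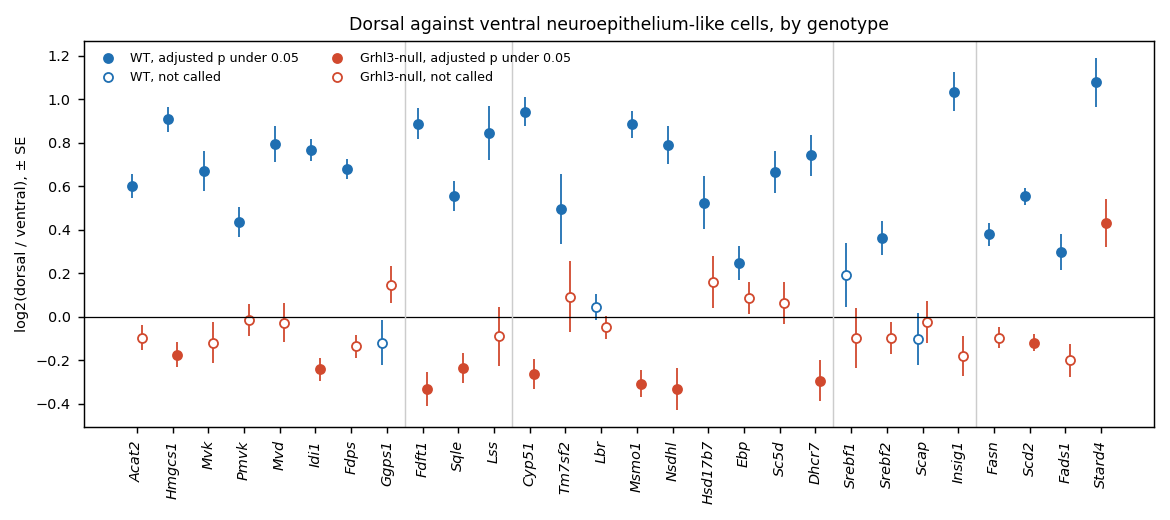
Log2 difference between dorsal and ventral neuroepithelium-like cells for each member (points, with bars of 1 SE), in WT and in *Grhl3*-null, with filled points for called members. The WT points lie above 0 for 26 of 28 members, with *Hmgcs1* at 0.91, and the *Grhl3*-null points lie below 0 for 22 of them, with *Hmgcs1* at -0.17.

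The split by position was also seen without the *Hoxc10*-led cluster. In the remaining dorsal cells 24 members fell in *Grhl3*-null and 0 rose, where 3.23% of 11220 genes were called lower, and the median was -0.78. In the remaining ventral cells 1 member fell, *Fdps*, where 0.873% of 11228 genes were called lower, and the median was -0.07. *Hmgcs1* had 217 and 248 CPM in these WT dorsal cells and 114 and 128 CPM in *Grhl3*-null dorsal cells. It had 120 and 118 CPM in WT ventral cells and 144 and 125 CPM in *Grhl3*-null ventral cells. Dorsal cells thus showed a clear gap between the genotypes and ventral cells did not for this gene. In WT, 22 members were higher dorsally, where 4.21% of 11661 genes were, and the dorsoventral difference was larger in WT for 19 members, where 0.549% were. In female WT cells alone, 22 members were higher dorsally, where 4.13% of 10515 genes were.

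A cluster at the finer resolution, led by *Gadd45a*, *Pax3* and *Foxd3*, was present in both genotypes (41 and 31 WT cells, 121 and 117 *Grhl3*-null cells). Taken alone, it got no name. Female cells made up 68.3% and 71.0% of it in WT and 30.6% and 26.5% in *Grhl3*-null, and it was not tested within a sex. In it 21 members fell in *Grhl3*-null and 0 rose, where 2.46% of 10235 genes were called lower, and the median was -0.91. *Hmgcs1* had 246 and 229 CPM in WT and 104 and 108 CPM in *Grhl3*-null cells of that cluster. The 19 enzymes from *Hmgcs1* to *Dhcr7* summed to 1772 and 1777 CPM in WT and to 878 and 918 CPM in *Grhl3*-null. In the cluster led by *Nkx6-1* and *Pax6*, the same sum was 1412 and 1339 CPM in WT and 1142 and 1127 CPM in *Grhl3*-null. That cluster was 79.5% and 69.0% female in WT and 9.49% and 7.62% in *Grhl3*-null. In the *Hoxc10*-led cluster it was 2015 and 2137 CPM in WT. These clusters were made from all genes, so their levels are a description.

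Sex of the embryo moved with the result. In cells from female embryos, 23 members fell in *Grhl3*-null and 0 rose, where 15.2% of 11668 genes were called lower, with a median of -0.88. In cells from male embryos, 0 members fell and 3 rose (*Fdps*, *Nsdhl* and *Acat2*), where 5.53% of 11671 genes were called higher, with a median of -0.04. The 19 enzymes summed to 1808 and 1938 CPM in female WT cells and to 932 and 863 CPM in female *Grhl3*-null cells. They summed to 1113 and 1050 CPM in male WT cells and to 1086 and 1126 CPM in male *Grhl3*-null cells. Female WT cells thus stood above the other groups, and the male cells of the genotypes overlapped. *Hmgcs1* had 212 and 225 CPM in female WT, 116 and 93.4 CPM in female *Grhl3*-null, 139 and 135 CPM in male WT and 133 and 139 CPM in male *Grhl3*-null cells. The male WT sums rest on 43 and 52 cells and the female *Grhl3*-null sums on 81 and 70 cells.

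Female and male cells were also compared within each genotype, with the library as a block. In WT, 21 members were higher in female cells and 0 lower, where 12.7% of 12122 genes were called higher. *Fdps* had the largest difference among the members, with 278 and 313 CPM in female and 103 and 75.1 CPM in male WT cells (log2 difference 1.86 ± 0.09, adjusted p = 2.96e-23). In *Grhl3*-null, 11 members were lower in female cells and 0 higher, where 7.58% were called lower, and *Fdps* had 78.0 and 69.4 CPM in female and 125 and 131 CPM in male cells (-0.78 ± 0.09, adjusted p = 1.01e-09). The order of the sexes was thus opposite in the pools. The difference of the 2 contrasts was called for 21 members, all larger in WT, where 13.2% of genes were. The X-linked members did not move alike, since *Nsdhl* was higher in female WT cells (1.49 ± 0.13) and *Ebp* was not called.

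Without the *Hoxc10*-led cluster, which was 100.0% and 98.6% female in WT, 22 members fell in female *Grhl3*-null cells, where 13.4% of 10886 genes were called lower, with a median of -0.63. In WT, 17 members were then higher in female than in male cells, where 10.3% of 11229 genes were. The difference of the contrasts was called for 17 members, where 13.1% were. By sex and position, the enzymes of dorsal male cells summed to 1418 and 1245 CPM in WT (11 and 12 cells) and to 1002 and 1096 CPM in *Grhl3*-null (160 and 175 cells). In dorsal female cells they summed to 2133 and 2275 CPM in WT and to 860 and 785 CPM in *Grhl3*-null. In ventral male cells they summed to 890 and 983 CPM in WT and to 1114 and 1096 CPM in *Grhl3*-null. In ventral female cells they summed to 1423 and 1363 CPM in WT and to 890 and 975 CPM in *Grhl3*-null (25 and 24 cells). WT cells thus stood above *Grhl3*-null cells in dorsal cells of either sex and in ventral female cells, and ventral male cells had the opposite order.

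The genotypes were then compared by sex and position. In dorsal female cells 22 members fell in *Grhl3*-null and 0 rose, where 10.8% of 10287 genes were called lower, with a median of -1.11. In ventral female cells 10 fell and 0 rose, where 6.63% of 9714 genes were called lower, with a median of -0.46. In dorsal male cells 6 fell (*Hmgcs1*, *Idi1*, *Sqle*, *Cyp51*, *Insig1* and *Scd2*), where 1.87% of 10198 genes were called lower, and *Fdps* rose, where 2.58% were called higher. *Hmgcs1* had 210 and 178 CPM in dorsal male WT cells and 118 and 135 CPM in dorsal male *Grhl3*-null cells. In ventral male cells 0 fell and 7 rose (*Hmgcs1*, *Idi1*, *Fdps*, *Fdft1*, *Msmo1*, *Nsdhl* and *Acat2*), where 4.41% of 10471 genes were called higher. Ventral cells thus had opposite directions in the sexes. The dorsoventral difference was larger in WT for 12 members in female cells, where 0.903% of 10515 genes were, and for 6 members in male cells (*Hmgcs1*, *Idi1*, *Cyp51*, *Msmo1*, *Nsdhl* and *Scd2*), where 0.211% of 10887 genes were.

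**Figure D3:**
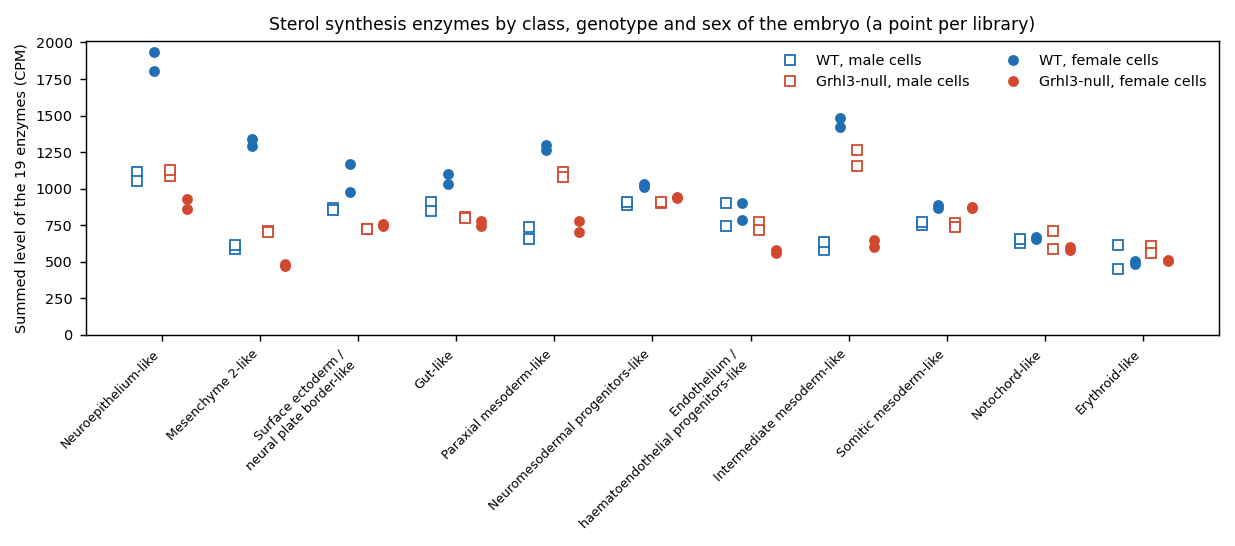
Summed level of the 19 enzymes from *Hmgcs1* to *Dhcr7* (CPM) in each class, by sex of the embryo and genotype, with 1 point per library. In the neuroepithelium-like class female WT cells lie at 1808 and 1938 CPM, above female *Grhl3*-null cells at 932 and 863 CPM, and the male cells of both genotypes lie between 1050 and 1126 CPM.

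Other measures were taken in the same cells. Genes induced by dissociation and stress (11 genes) summed to 204 and 212 CPM in WT and 194 and 205 CPM in *Grhl3*-null cells. Within female cells they summed to 201 and 206 CPM against 228 and 231 CPM, and within male cells to 230 and 224 CPM against 185 and 199 CPM, so they separated the genotypes in opposite directions in the sexes. Haemoglobins (7 genes), a sign of free RNA, summed to 38.2 and 32.8 CPM against 31.0 and 34.0 CPM. Visceral endoderm genes (8 genes) summed to 14.0 and 13.5 CPM against 21.3 and 24.3 CPM, and mitochondrial UMIs made up 2.84% and 2.92% against 3.38% and 3.46%. The part of these differences in the result was not tested.

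Among the 10 other classes that could be tested, members fell in 97 of 279 tests of a member in a class and rose in 6, where 6.52% of 119008 gene tests were called lower and 5.60% higher. Mesenchyme 2-like cells, a mesodermal class, showed the most negative median of these classes, -0.83, with 24 members lower and 0 higher, where 10.0% of 12384 genes were called lower. *Fdps* had 170 and 180 CPM in WT and 65.0 and 68.9 CPM in *Grhl3*-null cells of that class (log2 fold change -1.39 ± 0.05, adjusted p = 6.21e-12), and *Insig1* had 32.0 and 31.3 CPM against 15.5 and 12.3 CPM (-1.19 ± 0.09, adjusted p = 1.42e-07). *Ggps1*, *Lbr*, *Srebf1* and *Scap* were again not called. In female cells of the class 24 members fell, where 10.2% of 11476 genes were called lower, and in male cells 0 fell and 4 rose (*Idi1*, *Fdps*, *Msmo1* and *Acat2*), where 4.64% of 11111 genes were called higher. Dissociation and stress genes in this class summed to 300.3 and 298 CPM in WT and to 216 and 233 CPM in *Grhl3*-null, and their part in the result was not tested. In the class named for surface ectoderm and the border of the neural plate, a known site of *Grhl3* expression, 19 members fell and 0 rose, where 7.96% of 12508 genes were called lower. *Hmgcs1* had 146 and 121 CPM there in WT and 94.5 and 82.6 CPM in *Grhl3*-null (log2 fold change -0.63 ± 0.08, adjusted p = 2.16e-05). *Cyp51* had 65.6 and 51.4 CPM against 33.0 and 30.5 CPM (-0.92 ± 0.09, adjusted p = 3.25e-06). Within sexes, 16 members fell in female cells, where 8.87% of 11497 genes were called lower, and 6 in male cells (*Hmgcs1*, *Mvk*, *Idi1*, *Cyp51*, *Tm7sf2* and *Srebf2*), where 5.94% of 10944 genes were, and 0 rose in either.

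In the gut-like class, 18 members fell, where 9.95% of 13121 genes were called lower, and *Stard4* rose, where 9.58% were called higher. *Stard4* had 44.9 and 40.9 CPM in WT and 57.8 and 58.6 CPM in *Grhl3*-null gut-like cells (log2 fold change 0.40 ± 0.06, adjusted p = 6.07e-05), opposite to its direction in the neuroepithelium-like class. In female gut-like cells 16 members fell, where 3.00% of 11889 genes were called lower, and in male cells 4 fell (*Mvd*, *Idi1*, *Fdps* and *Cyp51*), where 7.96% of 11965 genes were, and *Stard4* rose, where 6.18% were called higher.

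In paraxial mesoderm-like cells 15 members fell, where 12.0% of 13424 genes were called lower. The direction turned between the sexes there. In female cells 20 members fell and 0 rose, where 5.57% of 11462 genes were called lower, with a median of -0.63. In male cells 0 fell and 16 rose, where 8.63% of 11504 genes were called higher, with a median of 0.52. In endothelium-like cells 8 fell, where 0.339% of 11491 genes were called lower. The 8 endothelial members were *Hmgcs1*, *Pmvk*, *Idi1*, *Fdps*, *Fdft1*, *Cyp51*, *Msmo1* and *Acat2*. In female cells of that class 9 members fell, where 1.72% of 10476 genes were called lower, and in male cells 0 fell, where 0.0610% of 9842 genes were. In intermediate mesoderm-like cells *Pmvk*, *Fdps* and *Acat2* fell, where 1.45% of 10885 genes were called lower. In female cells of that class 22 members fell, where 4.99% of 9533 genes were called lower, and in male cells 14 rose, where 3.06% of 8992 genes were called higher.

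Progenitors showed a smaller and mixed change. In neuromesodermal progenitor-like cells 8 members fell, where 10.7% of 13695 genes were called lower, and *Ggps1*, *Srebf1* and *Scd2* rose, where 8.73% were called higher. The number that rose was near the share over all genes. *Hmgcs1* had 102 and 101 CPM in WT and 95.7 and 96.9 CPM in *Grhl3*-null cells there and was not called (log2 fold change -0.08 ± 0.03, adjusted p = 0.0833). *Scd2* had 308 and 313 CPM against 363 and 370 CPM (0.23 ± 0.03, adjusted p = 0.000132). Female neuromesodermal progenitor-like cells had 8 members lower and 4 higher, where 12.8% and 10.5% of 12757 genes were. Male ones had 0 called, where 2.56% and 2.65% of 11971 genes were lower and higher. In somitic mesoderm-like cells *Fdps* and *Acat2* fell, where 6.67% of 12697 genes were called lower, and *Insig1* and *Scd2* rose, where 6.13% were called higher. Both numbers were near the shares over all genes. Female somitic mesoderm-like cells had 2 members lower and 2 higher, where 6.19% and 6.08% of 11578 genes were. Male ones had 0 called, where 1.38% and 1.59% of 10990 genes were lower and higher. No member was called in notochord-like cells, where 0.910% of 10218 genes were called lower, nor in erythroid-like cells, where 0.186% of 8585 were. At an unadjusted p under 0.05 there were 3 members in the notochord-like class (10.7%, against 13.8% of all genes) and 0 in the erythroid-like class (against 8.61% of all genes). Within a sex, *Idi1* was called lower in female notochord-like cells, where 1.47% of 8684 genes were. *Scd2* was called higher in male erythroid-like cells, where 0.613% of 6204 genes were. Over all filtered cells together, 23 members fell and 0 rose, where 18.5% of 17168 genes were called lower, and the median was -0.33. Such sums mix classes whose shares differ between the pools, such as pre-somitic mesoderm-like cells (496 and 482 WT cells, 4 and 4 *Grhl3*-null cells). The sexes also differed. Over all female cells the 19 enzymes summed to 1186 and 1195 CPM in WT and 744.5 and 744.1 CPM in *Grhl3*-null. Over all male cells they summed to 801 and 826 CPM in WT and 871 and 876 CPM in *Grhl3*-null.

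The change in the neuroepithelium-like class was compared with that in other cells by the interaction of class and genotype. It was more negative than in neuromesodermal progenitor-like cells for 26 members, where 8.95% of 13703 genes were, with *Scd2* at -0.90 ± 0.03 (adjusted p = 1.43e-23) and *Msmo1* at -0.85 ± 0.05 (adjusted p = 4.53e-17). Without the *Hoxc10*-led cluster, 20 members were called, where 3.87% of 13739 genes were. Against the surface ectoderm/plate border-like class, it was more negative for 7 members (*Pmvk*, *Fdps*, *Lbr*, *Nsdhl*, *Scd2*, *Fasn* and *Acat2*), where 6.93% of 13419 genes were. Without the *Hoxc10*-led cluster, *Scd2* was called more negative, where 3.27% of 13044 genes were, and *Hmgcs1* and *Cyp51* were called less negative, where 4.31% were. Against all other cells, 24 members were called more negative, where 6.91% of 16474 genes were. Without that cluster the number fell to 8, where 2.76% of 16350 genes were, and *Cyp51* was called less negative, where 2.15% were. Medians over the members within male cells were -0.04 in the neuroepithelium-like class, 0.01 in neuromesodermal progenitor-like cells and -0.23 in the surface ectoderm/plate border-like class. Within female cells they were -0.88, -0.06 and -0.48. The interaction was not tested within a sex.

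**Figure D4:**
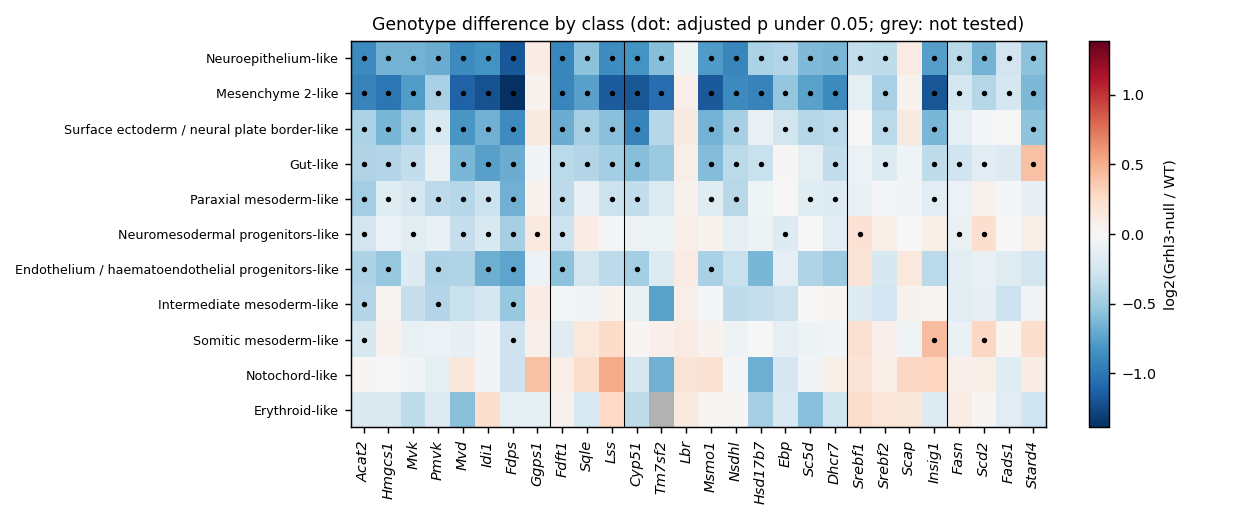
Log2 fold change of *Grhl3*-null over WT for each member (columns) in each class tested (rows), as colour, with a dot for called members and grey for members not tested. Mesenchyme 2-like and neuroepithelium-like cells show 24 and 25 members lower, and notochord-like and erythroid-like cells show 0 called members.

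The opposite order of the sexes was also seen in some mesodermal classes and not in others. In Mesenchyme 2-like cells the 19 enzymes summed to 1291 and 1342 CPM in female WT cells and to 589 and 616 CPM in male WT cells. In *Grhl3*-null they summed to 487 and 470 CPM in female and to 710 and 703 CPM in male cells. In paraxial mesoderm-like cells the sums were 1268 and 1299 CPM in female WT, 655 and 741 CPM in male WT, 703 and 777 CPM in female *Grhl3*-null and 1116 and 1080 CPM in male *Grhl3*-null. Female WT cells were highest in both classes. Male *Grhl3*-null cells of the paraxial class stood above male WT cells. In neuromesodermal progenitor-like cells the sums lay closer, and female cells stood above male cells in both genotypes, with 1013 and 1031 CPM against 887 and 909 CPM in WT and 935 and 946 CPM against 900.3 and 907 CPM in *Grhl3*-null. Somitic mesoderm-like cells had the same order in both, with 885 and 866 CPM in female against 754 and 771 CPM in male WT cells and 877 and 866 CPM against 763 and 735 CPM in *Grhl3*-null.

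Across the 13 classes in WT, the summed enzymes were highest in the neuroepithelium-like class (1739 ± 28.5 CPM, SD, n = 2 libraries), followed by pre-somitic mesoderm-like cells (1619 ± 2.63 CPM). The pre-somitic class held 496 and 482 WT cells and 4 and 4 *Grhl3*-null cells, and no test between genotypes was made there. The first place rests on the *Hoxc10*-led cluster: without it, the sum in the neuroepithelium-like class was 1479 ± 17.4 CPM, below the pre-somitic class. Mesenchyme 2-like cells (1162 ± 25.0 CPM) and intermediate mesoderm-like cells (1150 ± 36.2 CPM) overlapped. The surface ectoderm/plate border-like class (996 ± 104 CPM), the gut-like class (980 ± 48.2 CPM) and neuromesodermal progenitor-like cells (974 ± 12.3 CPM) overlapped one another. Erythroid-like cells had the lowest mean (526 ± 12.2 CPM). Of the members, 15 were highest in the neuroepithelium-like class, among them *Idi1*, *Sqle*, *Msmo1*, *Srebf2*, *Scd2* and *Fasn*. The pre-somitic class was highest for 7, among them *Hmgcs1* with 225 ± 8.45 CPM against 204 ± 1.52 CPM in the neuroepithelium-like class, and *Cyp51* with 161 ± 3.45 CPM against 114 ± 2.04 CPM. *Ebp* and *Stard4* were highest in the gut-like class, *Hsd17b7* and *Fads1* in notochord-like cells, *Ggps1* in primordial germ cell-like cells and *Scap* in neuromesodermal progenitor-like cells. The place of *Ggps1* rests on 16 and 5 WT cells, with 37.0 ± 6.53 CPM against 32.4 ± 0.14 CPM in the neuroepithelium-like class. These values take the sexes together, and the order was not the same in male WT cells. The neuroepithelium-like class was still highest there, with 1113 and 1050 CPM, and the pre-somitic class held 0 and 1 male WT cells. Mesenchyme 2-like (589 and 616 CPM) and intermediate mesoderm-like male WT cells (580 and 633 CPM) stood below gut-like ones (909 and 847 CPM). As the classes were made from all genes, this order is a description.

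Over the 13 WT class means, Pearson's r of a member with the mean of the other enzymes ranged from 0.36 for *Lbr* to 0.97 for *Lss*. *Hmgcs1*, *Msmo1*, *Dhcr7* and *Acat2* stood at 0.94 to 0.96, and *Ggps1* and *Ebp* at 0.40 and 0.38. Among 22081 genes outside the set, the highest r were those of *Nkain1* (0.94), *Snrpc* (0.93) and *Hnrnpm* (0.92). The class means share libraries and differ in their share of female cells, and these values are a description.

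**Figure D5:**
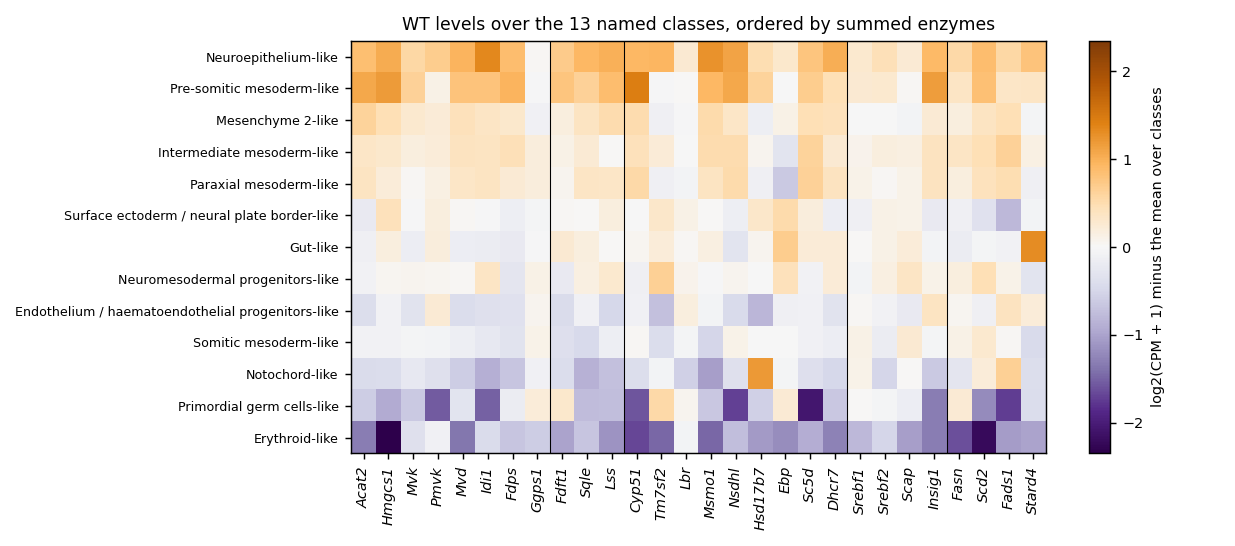
WT level of each member in each of the 13 named classes, as log2(CPM + 1) minus the mean of the member over the classes. The neuroepithelium-like class is highest for 15 members and the pre-somitic mesoderm-like class for 7.

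Of 25 related genes outside the set, 24 could be tested in the neuroepithelium-like class, and 12 fell and 3 rose in *Grhl3*-null, where 13.6% and 11.8% of all genes were called lower and higher. The number that rose was thus near the share over all genes. Without the *Hoxc10*-led cluster, 5 fell, where 3.84% of 12543 genes were called lower, and 0 rose, where 383 of these genes were called higher. The fatty acid genes *Acly*, *Acaca*, *Elovl6*, *Scd1* and *Fads2* fell, by 0.15, 0.15, 0.64, 0.61 and 0.64 on the log2 scale, as did *Lpin1* (1.26 lower), *Tmem97*, *Npc2* and *Lrp2*. The 3 that rose were *Abca1*, which exports cholesterol, with 7.42 and 6.68 CPM in WT and 8.76 and 10.8 CPM in *Grhl3*-null (0.44 ± 0.12, adjusted p = 0.0144), *Npc1*, which moves cholesterol out of lysosomes (0.29 ± 0.10, adjusted p = 0.041), and *Soat1*, which esterifies it (0.15 ± 0.05, adjusted p = 0.0316). In male cells alone, *Soat1* was called lower (-0.30 ± 0.09, adjusted p = 0.0466), opposite to its direction over all cells. Of the 11671 genes tested in male cells, 438 were called lower.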

How the data were processed

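Droplet scRNA-seq counts of 4 libraries were used. The authors aligned and counted the reads with Cell Ranger against mm10, per the labels' processing notes, and deposited raw UMI counts per gene and cell for each library. The members and the gene lists were chosen with earlier results of these data known.

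Cells with at least 3000 genes, 7500 UMIs and at most 7% mitochondrial UMIs were kept, between 4781 and 5459 per library, with 209833527 to 226723903 UMIs in all. Scrublet's own threshold called under 0.5% of cells, so doublets were kept, and the 5% of cells with the highest scores were left out as an alternative. Cells were clustered with Seurat 5.3.0 and sctransform 0.4.2 (3000 variable features, 30 principal components, 20 neighbours, resolution 0.4). Clusters were named from 15 markers per cell type of the study when at least 3 were among the 30 leading genes and their number exceeded that of the runner-up 1.5-fold; names may differ from those of the study. Sex was called per cell: male where 4 Y-linked genes gave 2 or more UMIs and *Xist* gave 2 or fewer, female where *Xist* gave 3 or more and the Y-linked genes no more than 1. UMIs were summed per class and library. Sums were tested with the quasi-likelihood test of edgeR 4.0.16 (TMM scaling, filterByExpr, Benjamini-Hochberg adjustment over all genes tested, threshold 0.05), in classes with at least 10 cells in each library. SE is the absolute log2 fold change over the square root of F. CPM is UMIs scaled to a fixed total per class sum and is not scaled by gene length. Genes named were the members, the related genes that were called, and the genes outside the set most like the summed enzymes; some of these are not reported here.

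DESeq2 1.42.0, no filter, each library left out, a replicate block, stricter cell filters, each sex and other clusterings were tried. Splits by position, by the *Hoxc10*-led cluster and by *T*, and the tests of the sexes, were added after the data were seen. On simulated counts over 12915 genes with 200 changed genes, the test of the neuroepithelium-like class recovered 172 at a log2 change of 1 and 138 at 0.5. Replicate libraries differed by more than counting noise (chi-square per degree of freedom 1.78 in WT and 3.09 in *Grhl3*-null for the neuroepithelium-like class).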

Additional observations from a re-analysis of the deposited data

Results flagged for a closer look

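Effects that differed between groups by a test of the difference itself (edgeR quasi-likelihood test) were found for 5 results. The dorsal minus ventral difference in neuroepithelium-like cells differed between the genotypes for 21 members, all larger in WT, where 1.30% of genes were. The female minus male difference differed between the genotypes for 21 members, all larger in WT, where 13.2% of genes were. The change in *Grhl3*-null was more negative in neuroepithelium-like than in neuromesodermal progenitor-like cells for 26 members (8.95% of genes), than in surface ectoderm/plate border-like cells for 7 members (6.93% of genes), and than in all other cells for 24 members (6.91% of genes). Without the *Hoxc10*-led cluster, which is nearly absent from *Grhl3*-null, these became 19 (0.549% of genes), 17 (13.1%), 20 (3.87%), 1 (3.27%) and 8 (2.76%) members in the same order. The 1 member was near the share over all genes. Against surface ectoderm/plate border-like cells 2 members were then less negative (4.31% of genes), and against all other cells 1 was (2.15%). Sex, embryo of origin and genotype cannot be told apart in these 2 pools, and their part in these differences was not tested.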

How the results depend on the processing

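In the neuroepithelium-like class, the 25 members called lower became 0 in male cells only, 12 with clustering at resolution 0.8 and 8 in ventral cells only (6, 0 and 10 in dorsal male, ventral male and ventral female cells), and the 0 called higher became 3 in male cells only and 1 in dorsal cells only (1 and 7 in dorsal male and ventral male cells). The 3274 genes called there became 1405 with DESeq2, 1625 with no filter on low counts, 1083 in male cells only, 524 at resolution 0.8 and 865 without the *Hoxc10*-led cluster. Calls over all genes thus differed widely between such fits. They are given in this section for the neuroepithelium-like class only, so the other member counts below cannot be set against a share here. In the other classes, the 97 lower calls became 62 with DESeq2 and 10 in male cells only, and the 6 higher calls became 36 in male cells only, 11 at resolution 0.8 and 10 with clustering without the members. Over all cells, the 23 members called lower became 2 in male cells only, and the 0 called higher became 10 in male cells only, 1 with doublets removed and 1 with a mitochondrial limit of 5%. The 4 members higher in dorsal cells over all libraries became 20 with no filter, 1 in male cells only, 15 in female cells only, 14 at resolution 0.8, 24 in WT libraries only and 1 in *Grhl3*-null libraries only, and the 0 lower became 9 in *Grhl3*-null libraries only. The 21 members with a larger dorsoventral difference in WT became 6 in male and 12 in female cells only. With 1 library left out, the 4 members became 1 to 11, the 7 members more negative than in surface ectoderm/plate border-like cells became 4 to 12 (12 without the first WT library, 4 without the second WT or the second *Grhl3*-null library), and the 0 less negative became 0 to 1. The 25 members of the neuroepithelium-like class stayed 25 in each such fit. In male cells only, log2 fold changes turned sign for 14 members: *Hmgcs1* 0.0319, *Mvd* 0.21, *Idi1* 0.0742, *Fdps* 0.59, *Fdft1* 0.32, *Ggps1* -0.10, *Lss* 0.0619, *Cyp51* 0.0224, *Tm7sf2* 0.33, *Msmo1* 0.16, *Nsdhl* 0.43, *Dhcr7* 0.0619, *Scap* -0.0806 and *Acat2* 0.36. The cause was not tested; male WT cells numbered 43 and 52. Deviations of libraries with the same replicate number had a correlation of 0.000337 over 12915 genes. This rests on 1 difference per genotype, so it cannot show whether such libraries shared a handling step. With a replicate block, 25 members were called lower in the neuroepithelium-like class, among 3596 genes, 106 lower and 9 higher in the other classes, and 2 members higher over all cells.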
